A study of Arabidopsis thaliana with 8 samples.

Results

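The plastid-encoded genes of Arabidopsis thaliana are described here by the small RNAs that map to them. They were chosen by their identifiers, as the rows of the deposited gene table whose ID starts with ATCG. These rows number 88 of 32420 genes. In 7 pairs both rows hold the same values in every column, so 81 distinct members are counted below. Aerial parts were sampled from plants aged 20 days, of which 6 were spent on MS medium and 14 on soil. The 4 es3dd libraries came from plants with the alleles dcl4-2 and dcl2-1 on top of ein5-1 and ski2-3, and the 4 es3 libraries from plants with ein5-1 and ski2-3, alleles that both groups therefore share. Col, the wild type, has no labelled library here and is described from the authors' group means only.

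The plastid genome encodes core subunits of the photosystems, the cytochrome b6f complex, ATP synthase and the NDH complex, the large subunit of RuBisCO, and part of the plastid's own RNA polymerase and ribosome. Its transcripts are made and degraded inside the organelle. EIN5 is a cytoplasmic exonuclease that degrades RNA from its 5′ end, and SKI2 is an RNA helicase that feeds RNA to the exosome, which degrades from the 3′ end. DCL4 and DCL2 are Dicer-like enzymes that cut double-stranded RNA into 21-nt and 22-nt small interfering RNAs, whereas most plant microRNAs are cut by DCL1.

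RefSeq's plastid record lists its protein-coding genes by symbol, among them 15 psb, 12 rps, 11 ndh, 9 rpl, 6 atp, 6 pet and 5 psa symbols. Names are given for 6 of the 81 members, tied through nuclear genes whose annotation cites an ATCG ID and whose sequence matches a gene of the plastid record. These were ndhJ and ndhK of the NDH complex, the envelope membrane protein gene cemA, the ribosomal protein genes rpl2 and rpl20, and clpP, which encodes a protease subunit. The annotation words cited for ATCG00430 are photosystem II reaction center protein G, while the matching plastid gene is ndhK. The other members are given by their ID. The sequences below open the coding regions of the named members with the largest 21-nt differences, and of both rpl2 copies. They were taken from RefSeq (TAIR10.1), run 5′ to 3′ on the coding strand, and carry the start codon in capitals.
ndhJ, ATCG00420, Pltd:48677-49153, minus strand: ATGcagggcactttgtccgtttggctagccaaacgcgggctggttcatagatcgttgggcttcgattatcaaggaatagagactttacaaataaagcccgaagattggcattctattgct
ndhK, ATCG00430, Pltd:49257-49934, minus strand: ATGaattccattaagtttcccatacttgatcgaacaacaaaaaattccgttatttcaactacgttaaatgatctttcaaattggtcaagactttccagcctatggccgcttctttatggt
cemA, ATCG00530, Pltd:60741-61430, plus strand: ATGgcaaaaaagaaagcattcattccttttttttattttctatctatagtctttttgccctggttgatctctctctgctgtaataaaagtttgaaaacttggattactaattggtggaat
rpl2, Pltd:84337-85843, minus strand: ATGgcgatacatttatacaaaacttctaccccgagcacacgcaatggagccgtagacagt
rpl2, Pltd:152806-154312, plus strand: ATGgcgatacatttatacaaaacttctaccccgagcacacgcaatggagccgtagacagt
The rpl2 copies lie in the inverted repeat and are identical over their whole spans, and the rows ATCG00830 and ATCG01310 hold identical values, so reads cannot be assigned to 1 copy. Of the 21-base words of the plastid record, 34.1% occur more than once in it and 9.15% occur outside it, in the nuclear chromosomes or the mitochondrial genome. Reads from such words cannot be placed by sequence alone. Among the named genes, the share of words found outside the plastid was 7.44% for ndhJ, 4.91% for rpl2, 2.30% for clpP, 1.34% for cemA and 0.304% for ndhK, and it was 0 for rpl20.

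Levels are in the authors' TPM, reads brought to a common total that are not divided by gene length, with 21-nt and 22-nt reads scaled apart. Levels of different genes are therefore not compared, and the contrasts below are within a gene. The library values were recovered from the group means, in which each read of a library adds a fixed step, and the recovered scales ran from 1035220 to 1128840 reads per es3dd library and from 1218990 to 1442110 reads per es3 library at 21 nt. At 22 nt they ran from 1124940 to 1242950 reads in es3dd and from 1057390 to 1318740 reads in es3. The leaf genes RBCS1A and LHCB1.1, which encode a RuBisCO small subunit and a chlorophyll-binding antenna protein, had small RNA reads in each genotype, with 21-nt means of 198, 245 and 652 TPM for RBCS1A in es3dd, es3 and Col. Small RNA reads at EIN5, SKI2, DCL4 and DCL2 do not show whether these genes are mutated. In whole aerial tissue, fewer cells of a type and less RNA per cell cannot be told apart.

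Under the authors' scaling, plastid small RNAs as a whole had a higher summed level in es3dd than in es3, and the authors' Col mean was above both. Summed over the 81 members, the 21-nt level was 11478, 10798, 11945 and 12662 TPM in the es3dd libraries, against 4737, 4648, 4646 and 4640 TPM in the es3 libraries. The 22-nt sum was 11042, 10678, 11624 and 12847 TPM in es3dd, against 5746, 5582, 5502 and 5341 TPM in es3. In both size classes every es3dd sum lay above every es3 sum. The sums over mitochondrion-encoded genes were also apart at 21 nt, at 1490 to 1661 TPM in es3dd and 987 to 1075 TPM in es3. At 22 nt those sums overlapped, at 1909 to 2118 TPM in es3dd and 1966 to 2131 TPM in es3. Sums were not taken on other scales. The Col sums of the authors' means were 22757 TPM at 21 nt and 20679 TPM at 22 nt. ATCG00020 and ATCG00490 together held between 36.2% and 37.1% of the 21-nt sum in the es3dd libraries, between 42.8% and 45.9% in the es3 libraries, and 47.8% in Col. Without these members the 21-nt sums were 6887 to 7959 TPM in es3dd and 2512 to 2659 TPM in es3, which again did not overlap.

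**Figure D1:**
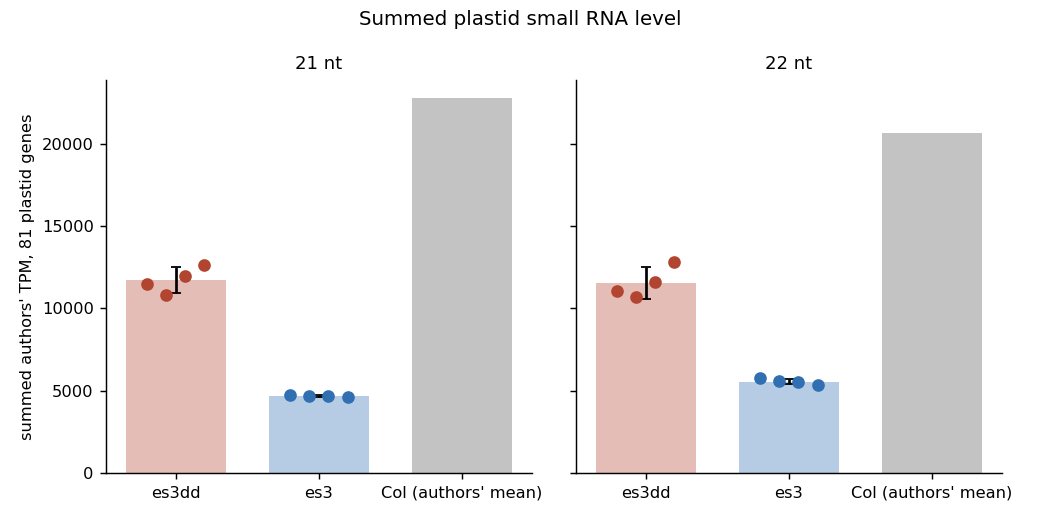
Summed level of the 81 distinct plastid-encoded genes in the authors' TPM (vertical axis) by genotype for 21-nt and 22-nt reads. Points are recovered libraries, bars are means with SD (n = 4) for es3dd and es3, and the Col bar is the authors' mean without libraries; at 21 nt the es3dd libraries lie between 10798 and 12662 and the es3 libraries between 4640 and 4737.

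The share of the plastid genes in the summed level of all gene rows followed the same order of genotypes. Of the summed 21-nt means, they held 1.55% in es3dd, 0.889% in es3 and 3.75% in Col. At 22 nt the shares were 5.43% in es3dd, 2.47% in es3 and 8.86% in Col. The sums over all gene rows were 756069, 524885 and 606543 TPM at 21 nt in es3dd, es3 and Col. At 22 nt they were only 212529, 224610 and 233286 TPM, so the shares are not compared between size classes. MIR loci, the genes of microRNA precursors, held 83.2%, 33.2% and 68.6% of the summed 21-nt means in es3dd, es3 and Col. With MIR loci left out, the plastid shares at 21 nt became 9.23%, 1.33% and 11.95% in the same order. These shares have no spread over libraries for Col and were not tested.

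At 21 nt and under the authors' scaling, small RNAs rose in es3dd over es3 at 70 of 81 plastid genes. Scaled to MIR loci, 2 members were called higher and 7 lower, and the median log2 difference of the members turned to −0.22. All genes on that scale had 0.166% called higher and 86.8% lower, with a median of −2.76. Calls needed a limma adjusted p below 0.05 on log2(TPM + 1), by Benjamini-Hochberg over all genes tested, and a log2 difference, es3dd minus es3, of 1 or more in size. All 81 members passed the filter of a mean of 1 TPM, and 70 were called higher and 0 lower in es3dd. Over all 17438 genes tested, 7.72% were called higher and 45.9% lower. The median log2 difference was 1.56 over the members and −0.98 over all genes. By limma, 1 member with a negative 21-nt difference had an unadjusted p under 0.05, both in this fit and with voom weights, and 0 did at 22 nt. In 69 members all 4 es3dd libraries lay above all 4 es3 libraries, a pattern that 9% of all genes tested had. The authors' deposited table called 71 members higher in es3dd at the same thresholds, of which 69 were among the 70. The share over all genes was not counted for that comparison.

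**Figure D2:**
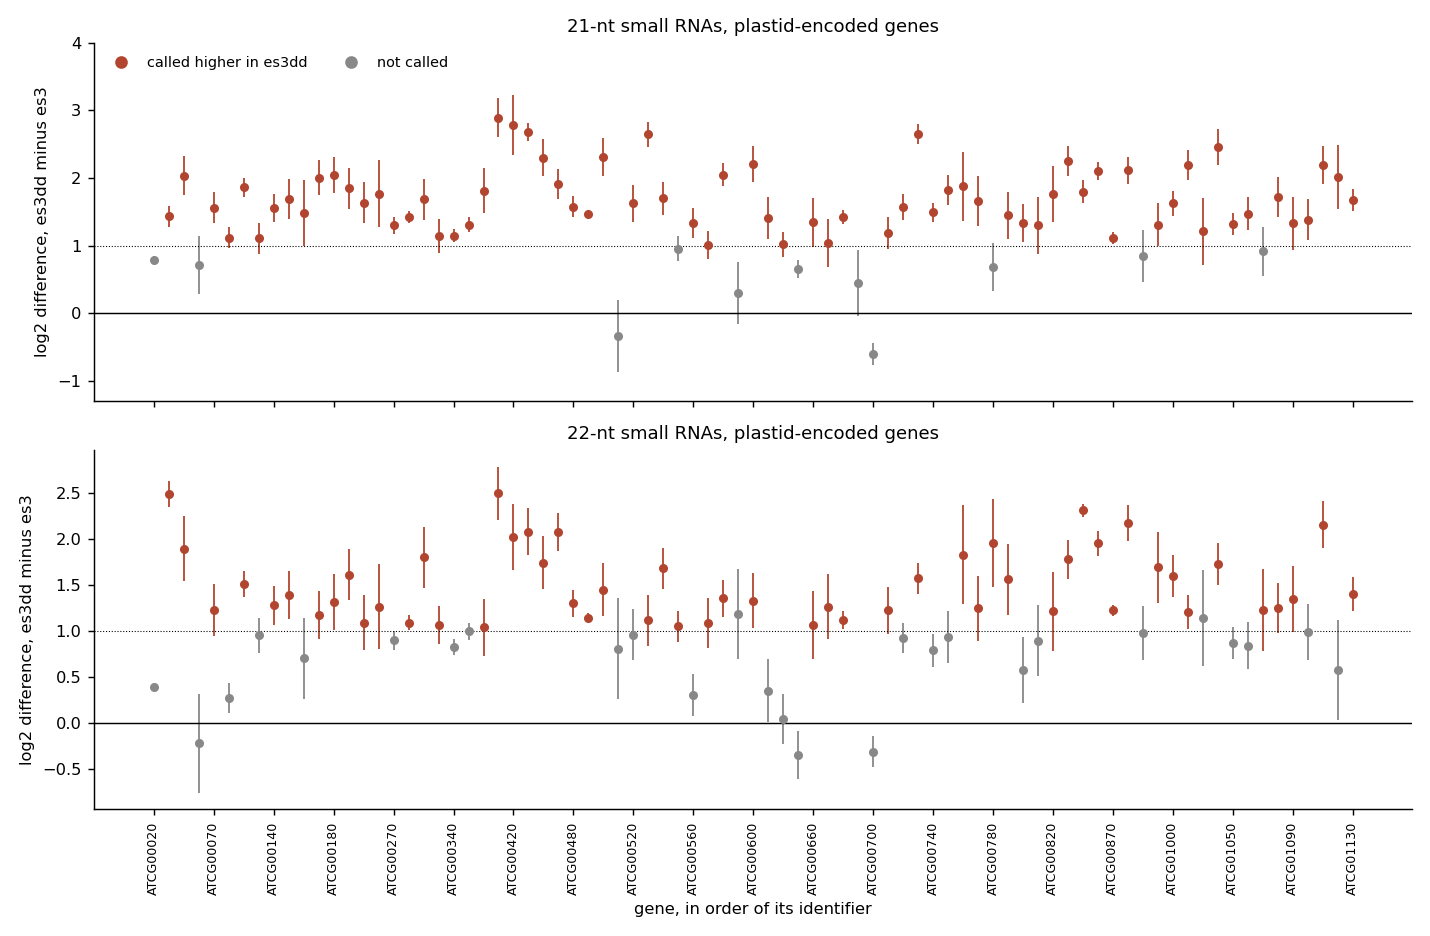
Log2 difference, es3dd minus es3, on the log2(TPM + 1) scale with its SE (vertical axis) for each distinct plastid-encoded gene in order of its ID (horizontal axis), 21 nt above and 22 nt below. Filled red points were called higher in es3dd (70 members at 21 nt, 53 at 22 nt), grey points were not called, and the dotted line marks a log2 difference of 1.

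At 22 nt fewer members were called. Of the 81 members, 80 passed the filter, 53 were called higher and 0 lower in es3dd, against 4.33% higher and 15.1% lower of the 14678 genes tested. The median log2 difference was 1.22 over the members and −0.30 over all genes. In 61 members every es3dd library lay above every es3 library, against 6.91% of all genes tested. The same members were often called in both classes: 50 were called higher in both, 20 only met the threshold at 21 nt, 3 (ATCG00550, ATCG00780 and ATCG01070) only at 22 nt, and 8 in neither. Whether the differences of the size classes themselves differ was not tested, since the recovered libraries of the classes cannot be matched. ATCG00690 was below the filter at 22 nt, with 2 reads over the es3dd libraries.

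Of the 11 members not called at 21 nt, 4 passed the adjusted p with a positive difference below 1, 1 passed it with a negative difference and 6 missed it. At 22 nt, 27 tested members were not called, of which 13 passed the adjusted p with a positive difference below 1 and 14 missed it. A p that misses the threshold does not show that these members had equal levels.

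The NDH complex, which carries electrons around photosystem I, is represented by 2 named neighbours. ndhJ had 19.5, 18.3, 26.99 and 26.1 TPM at 21 nt in the es3dd libraries, against 4.85, 5.83, 2.29 and 0 TPM in the es3 libraries, and a Col mean of 31.1 TPM. All es3dd libraries exceeded all es3 libraries, with a log2 difference of 2.79 ± 0.45 (SE; limma adjusted p = 1.26e-05). At 22 nt ndhJ had 16.1, 13.1, 22.1 and 29.3 TPM in es3dd, against 4.55, 1.70, 2.66 and 10.4 TPM in es3, a log2 difference of 2.02 ± 0.36 (SE; limma adjusted p = 8.4e-06). The highest es3 library came close to the lowest es3dd library there, without overlap.

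ndhK lies next to ndhJ on the same strand and had a far higher level in the 21-nt class than in the 22-nt class. Its 21-nt level was 366, 291, 311 and 302 TPM in es3dd, against 49.2, 51.7, 52.7 and 41.0 TPM in es3, and 186 TPM in Col. Every es3dd library was far above every es3 library, with a log2 difference of 2.68 ± 0.13 (SE; limma adjusted p = 5.45e-15). Its 22-nt level was 37.8, 45.5, 44.2 and 37.3 TPM in es3dd, against 7.58, 5.08, 10.7 and 15.1 TPM in es3, and 41.3 TPM in Col. The groups were again apart, and the log2 difference was 2.08 ± 0.26 (SE; limma adjusted p = 8.67e-10). At 21 nt the es3dd mean lay above the Col mean, while at 22 nt the means of es3dd and Col were 41.2 and 41.3 TPM.

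cemA, which encodes an envelope membrane protein, showed a like excess of 21-nt reads. It had 117, 136, 98.6 and 170 TPM at 21 nt in es3dd, against 20.8, 21.9, 19.9 and 16.4 TPM in es3, and 88.9 TPM in Col. The groups did not overlap, and the log2 difference was 2.64 ± 0.19 (SE; limma adjusted p = 1.75e-11). At 22 nt cemA had 16.9, 29.8, 20.3 and 27.6 TPM in es3dd, against 7.58, 10.2, 14.2 and 9.46 TPM in es3, and 31.4 TPM in Col. The 22-nt log2 difference was 1.12 ± 0.28 (SE; limma adjusted p = 0.00144), and it fell under the limit of 1 without es3dd library 2 (0.997) or without es3 library 1 (0.991).

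The named ribosomal protein genes also rose in es3dd at 21 nt. rpl2, a large-subunit gene given here by the shared values of ATCG00830 and ATCG01310, had 85.0, 69.5, 93.1 and 87.9 TPM at 21 nt in es3dd, against 24.96, 17.5, 14.5 and 12.3 TPM in es3, and 90.4 TPM in Col. Its libraries were well apart, with a log2 difference of 2.25 ± 0.22 at 21 nt and 1.78 ± 0.21 at 22 nt (SE; limma adjusted p = 4.03e-09 and 1.92e-10). rpl20, another large-subunit gene, had 13.3, 10.97, 8.38 and 22.2 TPM at 21 nt in es3dd, against 2.77, 7.29, 3.82 and 4.92 TPM in es3, and 24.3 TPM in Col. The rpl20 groups were close but apart, with log2 differences of 1.35 ± 0.36 at 21 nt and 1.06 ± 0.37 at 22 nt (SE; limma adjusted p = 0.00325 and 0.0285). The 22-nt call of rpl20 was lost without es3dd library 2 (0.90) or 4 (0.98) and without es3 library 2 (0.96) or 4 (0.998).

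clpP, which encodes the catalytic subunit of the plastid Clp protease, had the smallest 21-nt difference of the named genes. Its level was 14.2, 15.5, 14.9 and 11.6 TPM in es3dd, against 3.47, 4.37, 13.0 and 7.38 TPM in es3, and 25.6 TPM in Col. 1 es3 library reached into the es3dd range, and the log2 difference was 1.04 ± 0.35 (SE; limma adjusted p = 0.0146). That call was lost without es3dd library 2 (0.99) and without es3 library 1 (0.80) or 2 (0.89). At 22 nt the groups were apart, at 9.65, 11.4, 12.4 and 17.8 TPM in es3dd and 5.31, 4.24, 3.55 and 5.67 TPM in es3, with a log2 difference of 1.26 ± 0.35 (SE; limma adjusted p = 0.00517).

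**Figure D3:**
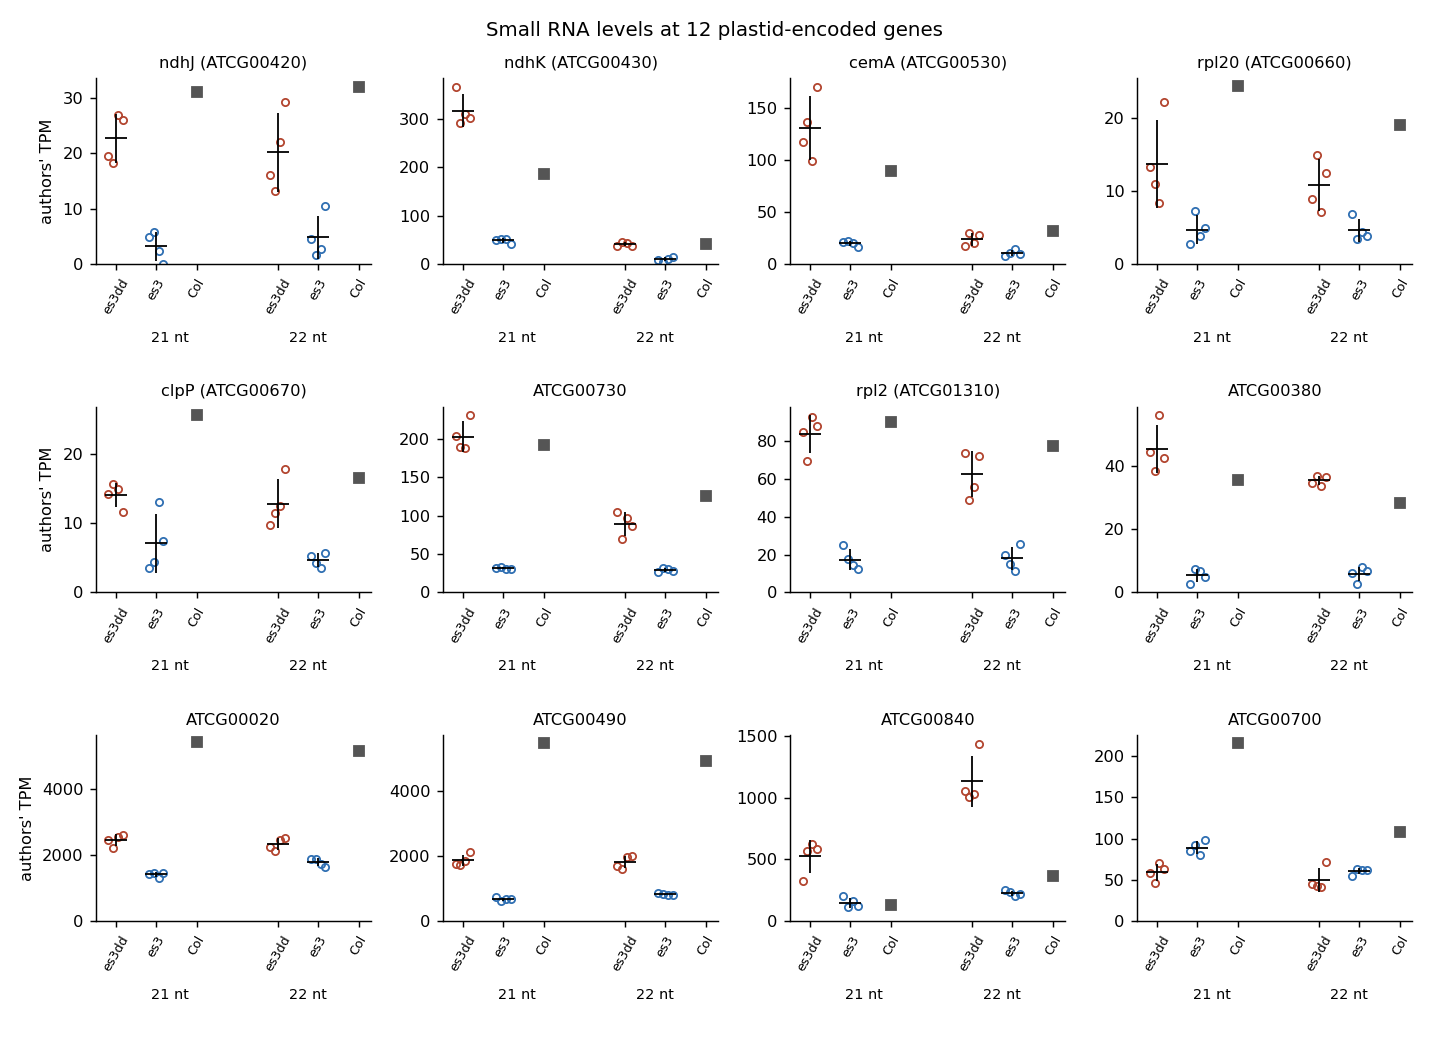
Small RNA level in the authors' TPM (vertical axes, each from 0) of 12 plastid-encoded genes by genotype, 21 nt on the left and 22 nt on the right of each panel. Open circles are recovered libraries with their mean and SD (n = 4) for es3dd and es3, and squares are the authors' Col means; ATCG00700 is lower in es3dd than in es3 at 21 nt, and the 21-nt Col square of ATCG00840 lies within the range of its es3 libraries, while its 22-nt square lies above them.

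Among the members without a name, ATCG00380 had the largest difference in both size classes. At 21 nt it had 44.3, 38.4, 55.8 and 42.5 TPM in es3dd, against 2.77, 7.29, 6.88 and 4.92 TPM in es3, and 35.5 TPM in Col. At 22 nt it had 34.6, 36.8, 33.6 and 36.45 TPM in es3dd, against 6.07, 2.54, 7.99 and 6.62 TPM in es3, and 28.1 TPM in Col. The groups were far apart in both classes, with log2 differences of 2.89 ± 0.29 at 21 nt and 2.50 ± 0.29 at 22 nt (SE; limma adjusted p = 6.92e-09 and 6.59e-11). ATCG00730 had 204, 190, 188 and 232 TPM at 21 nt in es3dd, against 31.9, 33.5, 30.6 and 30.3 TPM in es3. Its log2 difference was 2.65 ± 0.15 at 21 nt (SE; limma adjusted p = 7.44e-14) and 1.57 ± 0.17 at 22 nt.

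Other members stood out at 22 nt. ATCG00040 had 178, 163, 180 and 189 TPM at 22 nt in es3dd, against 30.3, 31.4, 30.2 and 31.2 TPM in es3, and 170 TPM in Col. The es3 libraries lay close together and far below the es3dd libraries, and the log2 difference was 2.49 ± 0.14 (SE; limma adjusted p = 5.6e-25), beside 1.43 ± 0.15 at 21 nt. ATCG00840, whose row is identical to that of ATCG01300, had 1056, 1007, 1026 and 1439 TPM at 22 nt in es3dd, against 249, 233, 204 and 217 TPM in es3, and 362 TPM in Col. Its log2 difference was 2.31 ± 0.07 (SE; limma adjusted p = 3.19e-39). At 21 nt ATCG00840 had 326, 568, 621 and 582 TPM in es3dd, against 201, 112, 161 and 124 TPM in es3, and 132 TPM in Col. In both classes its es3dd mean was above its Col mean. ATCG00890 and ATCG01110 had 22-nt log2 differences of 2.17 ± 0.19 and 2.15 ± 0.26, beside 2.11 ± 0.20 and 2.20 ± 0.28 at 21 nt (SE).

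Of the members with the highest 21-nt means, 1 was called higher in es3dd in both classes and 1 in neither. ATCG00020 had 2444, 2191, 2540 and 2589 TPM at 21 nt in es3dd, against 1415, 1455, 1306 and 1458 TPM in es3, and 5406 TPM in Col. Its libraries were apart, but the log2 difference of 0.79 ± 0.05 at 21 nt and 0.39 ± 0.04 at 22 nt stayed below the size limit of a call (SE; limma adjusted p = 2.22e-12 and 1.41e-12). ATCG00490 had 1758, 1719, 1853 and 2115 TPM at 21 nt in es3dd, against 727, 612, 681 and 670 TPM in es3, and 5470 TPM in Col. ATCG00490 was the one called, with log2 differences of 1.46 ± 0.07 and 1.14 ± 0.05 at 21 and 22 nt (SE; limma adjusted p = 7.04e-16 and 8.92e-32).

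ATCG00700 went the other way. It had 57.6, 45.7, 69.8 and 62.8 TPM at 21 nt in es3dd, against 84.6, 92.5, 80.3 and 98.4 TPM in es3, and 216 TPM in Col. It was the only member whose 4 es3dd libraries all lay below the 4 es3 libraries at 21 nt, a pattern that 36.8% of all genes tested had. The log2 difference was −0.60 ± 0.16 (SE; limma adjusted p = 0.00356), below the size limit of a call. At 22 nt the groups overlapped, at 44.3, 42.9, 40.7 and 71.1 TPM in es3dd and 54.6, 63.6, 62.1 and 61.5 TPM in es3.

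Other members had a small difference in 1 or both size classes. ATCG00650 had 140, 138, 122 and 149 TPM at 21 nt in es3dd, against 94.3, 84.5, 79.5 and 87.8 TPM in es3, a log2 difference of 0.66 ± 0.13 (SE), while its 22-nt libraries overlapped at 8.84 to 31.1 TPM in es3dd and 19.9 to 31.4 TPM in es3. ATCG00640 was called higher at 21 nt, with a log2 difference of 1.02 ± 0.18, and had 0.04 ± 0.27 at 22 nt (SE). Its 21-nt call was lost without es3dd library 3 (0.99) or 4 (0.95) and without es3 library 1 (0.98) or 4 (0.96). ATCG00080 likewise had 1.12 ± 0.16 at 21 nt, where it was called, and 0.27 ± 0.16 at 22 nt (SE). ATCG00510, ATCG00590, ATCG00690 and ATCG00065 had 21-nt means between 1.84 and 4.39 TPM in es3dd and between 1.30 and 3.27 TPM in es3, where single reads decide the differences. The 22-nt difference of ATCG00590, 1.18 ± 0.49 (SE), missed the adjusted p (0.0693) and passed without es3 library 1 (1.47).

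The scale on which libraries are compared decides whether the plastid genes as a group rose. When libraries were scaled to MIR loci, 2 members were called higher and 7 lower at 21 nt, with a median log2 difference of −0.22, and 2 higher and 8 lower at 22 nt, with a median of −0.20. On that scale 0.166% of all genes were called higher and 86.8% lower at 21 nt, and 0.204% and 77.9% at 22 nt. The medians over all genes were −2.76 and −1.71 there. Under the authors' scaling, MIR loci themselves had a median log2 difference of 1.76 at 21 nt, with 80 of 101 called higher, and of 1.30 at 22 nt, with 62 of 104 called higher. Scaled to mitochondrion-encoded genes, 44 members at 21 nt and 62 at 22 nt were called higher, beside 2.88% and 5.46% of all genes. On that scale 1 member was lower at 21 nt and 0 at 22 nt, beside 58.2% and 12.8% of all genes. With libraries centred on the median gene, 79 and 69 members were called higher, beside 25.9% and 11% of all genes, and 0 were lower in either class, beside 18.2% and 8.49% of all genes. The part that the MIR loci's rise plays in the plastid difference was not tested.

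**Figure D4:**
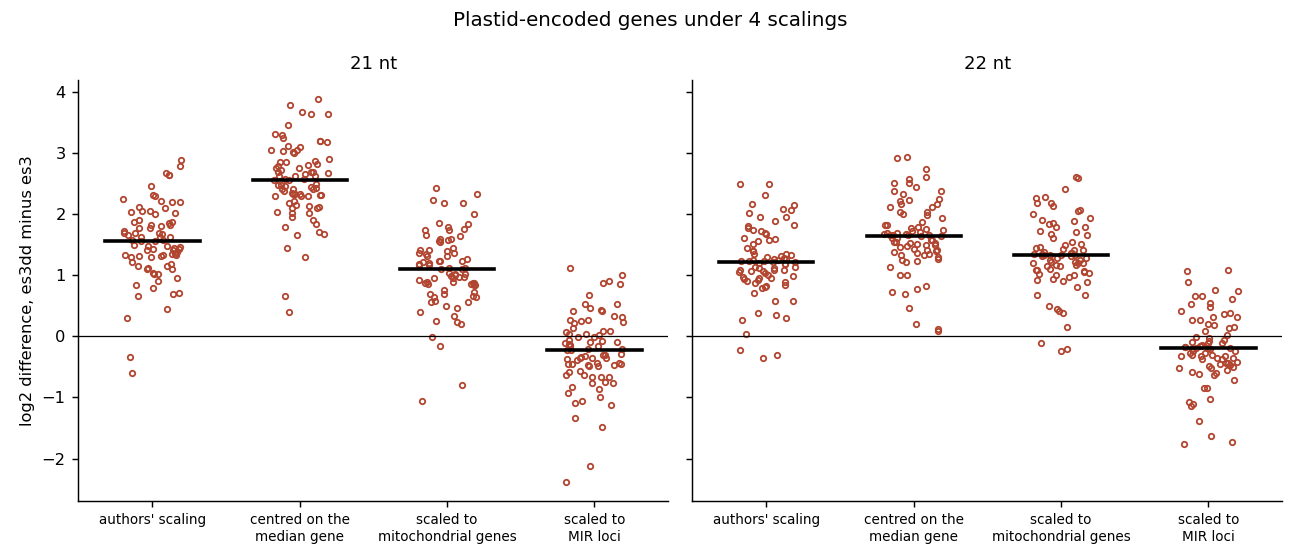
Log2 difference, es3dd minus es3 (vertical axis), of each distinct plastid-encoded gene (points) under 4 scalings of the libraries (horizontal axis), with the median as a black line. At 21 nt the median is 1.56 under the authors' scaling, 2.55 when libraries are centred on the median gene, 1.103 when scaled to mitochondrial genes and −0.22 when scaled to MIR loci.

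A scale set by the plastid genes themselves compares the members with each other and not the group. Scaled to the plastid-encoded genes themselves, 5 members were called higher than the plastid level at 21 nt (ATCG00380, ndhJ, ndhK, cemA and ATCG00730) and 4 lower (ATCG00510, ATCG00590, ATCG00690 and ATCG00700). At 22 nt, 4 were called higher (ATCG00040, ATCG00380, ATCG00840 and ATCG00890) and 4 lower (ATCG00065, ATCG00640, ATCG00650 and ATCG00700). Few reads lie behind some lower calls. Over the es3dd and es3 libraries, ATCG00510 had 10 and 15 reads at 21 nt, ATCG00590 17 and 17, and ATCG00690 8 and 7. ATCG00065 had 9 and 10 at 22 nt. At such levels log2(TPM + 1) draws a difference toward 0, which on this scale counts as below the plastid level. Their place there is therefore uncertain. On this scale 0.373% of all genes were called higher and 81% lower at 21 nt, and 0.3% and 66.9% at 22 nt. ATCG00380 was above the plastid level and ATCG00700 below it in both classes. Relative to the plastid level, cemA had a log2 difference of 1.12 at 21 nt and −0.05 at 22 nt, and ATCG00040 had −0.09 and 1.32.

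In es3 against Col, the authors' deposited table showed lower plastid small RNAs in es3 at most members. At an adjusted p below 0.05 and a log2 fold change of −1 or less in the authors' deposited table, 78 of 81 members were lower at 21 nt and 74 of 81 at 22 nt, and 0 were higher. Over all genes of the authors' deposited table, 3.89% of 18061 were lower and 21.2% higher at 21 nt, and 3.96% of 14640 were lower and 7.85% higher at 22 nt. The median log2 fold change of the authors' deposited table, es3 over Col, was −2.36 over the members at 21 nt and −2.06 at 22 nt, beside 0.74 and 0.19 over all genes. MIR loci had medians of −0.78 and −0.49 in the authors' deposited table, and mitochondrion-encoded genes −0.79 and 0.03.

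The largest falls by that measure were at members with few reads. ATCG01120 had a log2 fold change of −5.08 at 21 nt in the authors' deposited table, and its es3 libraries held 1 read in all. ATCG00760 had −4.23 at 21 nt in the authors' deposited table, with means of 0.711 TPM in es3 and 14.0 TPM in Col. In es3dd over es3, ATCG01120 had a ratio of 22.8 at 21 nt, with a 95% exact Poisson interval of 4.09 to 900 from the single es3 read, which covers counting error only. Of the members with more reads, ATCG01080 had means of 7.72 TPM in es3 and 82.8 TPM in Col at 21 nt, a log2 fold change of −3.40 in the authors' deposited table. ndhJ had −3.20 at 21 nt and −2.76 at 22 nt in the authors' deposited table. Again with few reads, at an es3 mean of 0.997 TPM, ATCG01020 had −3.26 at 21 nt in that deposited table by the authors. The largest 22-nt falls in the authors' deposited table were −3.04 at ATCG01110, −2.98 at ATCG00780, −2.79 at ATCG00300, −2.76 at ndhJ and −2.59 at ATCG00490.

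ATCG00840 stood outside this fall. At 21 nt its mean was 149 TPM in es3 and 132 TPM in Col, with a log2 fold change of 0.18 and an adjusted p of 0.628 in the authors' deposited table. It was the only member with a positive 21-nt value there. At 22 nt it had means of 226 TPM in es3 and 362 TPM in Col, a log2 fold change of −0.68 (adjusted p = 3.22e-06) in the authors' deposited table. ATCG00700 had −1.28 at 21 nt and −0.84 at 22 nt, ATCG00510 −1.34 at 21 nt, ATCG00650 −1.44 at 21 nt and ATCG00590 −1.55 at 21 nt in the authors' deposited table, the next values of the 21-nt class, of which that of ATCG00510 missed the adjusted p (0.0913). At 22 nt ATCG00065 had 0.22 (adjusted p = 0.929), ATCG00690 −0.68 (adjusted p = 0.806) and ATCG00630 −0.90 in the authors' deposited table.

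Both comparisons share the es3 libraries, so their values are only set side by side. By the means, 73 of 81 members at 21 nt had their highest level in Col, then es3dd, then es3, 5 had es3dd highest, then Col, then es3, and 3 had another order. At 22 nt the same orders held for 69, 8 and 4 members. On the log2(TPM + 1) scale of the means, es3dd over Col had a median of −0.77 at 21 nt, from −1.86 to 1.99, and of −0.72 at 22 nt, from −1.64 to 1.64. The es3dd mean exceeded the Col mean in 6 members at 21 nt and in 9 at 22 nt. At 21 nt these included ndhK (317 TPM in es3dd, 186 TPM in Col), cemA (130 and 88.9 TPM), ATCG00380 (45.3 and 35.5 TPM), ATCG00730 (203 and 192 TPM) and ATCG00840 (524 and 132 TPM). These orders and counts were not taken over all genes, so they do not show a trait particular to plastid genes. No spread over Col libraries was at hand, and these values were not tested.

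The balance of the size classes varied by gene and genotype. Among members with a mean of at least 5 TPM in both classes, the median ratio of the 22-nt to the 21-nt level was 0.781 in es3dd (75 members), 1.04 in es3 (62 members) and 0.766 in Col (77 members). Over all genes with the same minimum, the median ratio was 1.39 in es3dd, 0.722 in es3 and 1.26 in Col. Since the classes are scaled apart, a ratio of 1 does not mean equal read numbers, and genotypes are compared on this scale only as a description. Most members stayed within a 2-fold range around 1, with 62 of 75 in es3dd, 57 of 62 in es3 and 62 of 77 in Col. Counts inside and outside that range were not taken over all genes, so they do not show a trait particular to plastid genes.

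Below that range, with a ratio under 0.5, lay 11 members in es3dd, 4 in es3 and 14 in Col, and above 2 lay 2 members in es3dd, 1 in es3 and 1 in Col. The examples that follow were chosen after their values were seen, and each but ndhK and ATCG00650 lay inside the range in at least 1 genotype. ndhK had a ratio of 0.130 in es3dd, 0.197 in es3 and 0.222 in Col. cemA had ratios of 0.181, 0.525 and 0.353 in es3dd, es3 and Col, and ATCG00650 had 0.152, 0.286 and 0.217. With ratios above 1, ATCG00840 had 2.16, 1.51 and 2.75, and ATCG00870, whose row is identical to that of ATCG01270, had 2.55, 2.34 and 1.99 in es3dd, es3 and Col. ATCG00870 had 1706, 1957, 1530 and 2387 TPM at 22 nt in es3dd, against 865, 750, 814 and 775 TPM in es3. Both groups of ATCG00870 came from the bounded search described below, which leaves no room for overlap at these means. ATCG00040 changed sides, with ratios of 1.24 in es3dd, 0.587 in es3 and 0.774 in Col.

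**Figure D5:**
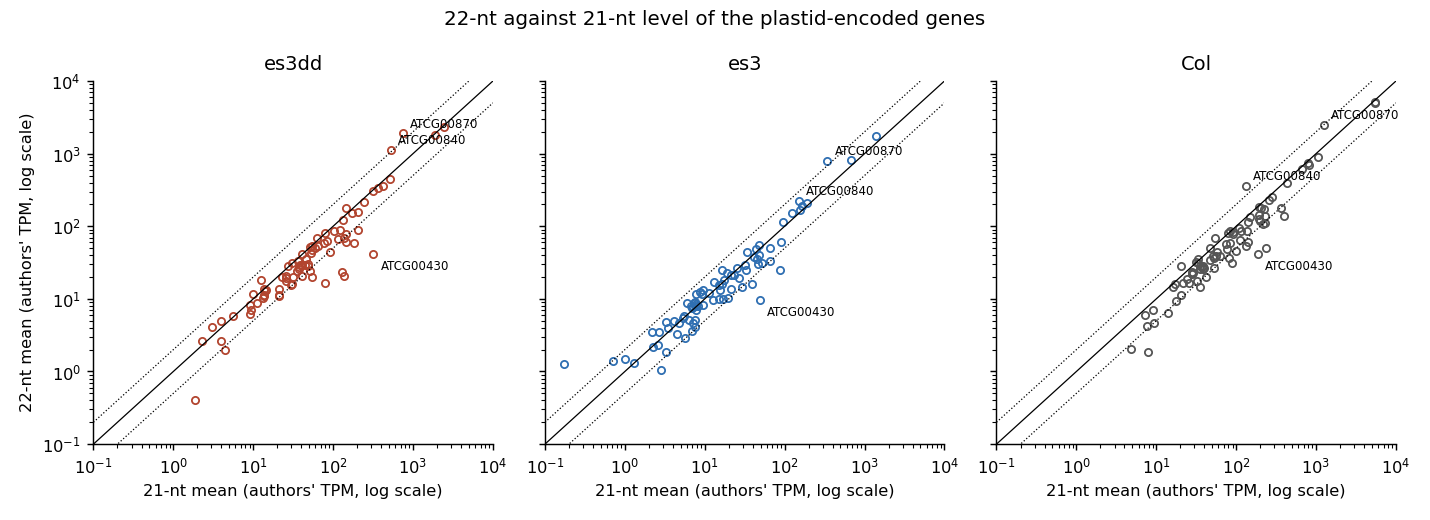
22-nt mean (vertical axis) against 21-nt mean (horizontal axis) in the authors' TPM, both on log scales, for the 81 distinct plastid-encoded genes in es3dd, es3 and Col. The solid line marks equal values and the dotted lines a 2-fold range; ATCG00430 (ndhK) lies below it in each genotype, with ratios of 0.130, 0.197 and 0.222, and ATCG00840 lies above the solid line.

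Nuclear genes whose proteins work beside the plastid-encoded subunits were also counted. Of 28 nuclear photosynthesis genes, 1 was called higher and 3 lower in es3dd at 21 nt, with a median log2 difference of 0.09, and 5 were higher and 0 lower at 22 nt, with a median of 0.47. Over all genes, 7.72% were called higher and 45.9% lower at 21 nt, and 4.33% higher and 15.1% lower at 22 nt. RCA, which encodes RuBisCO activase, was higher at 21 nt by 1.18 ± 0.12 on the log2 scale (SE; limma adjusted p = 8.44e-09). The plastocyanin genes PETE1 and PETE2 and the photosystem I gene PSAD1 were lower at 21 nt, with log2 differences of −3.13 ± 0.26, −1.55 ± 0.16 and −1.20 ± 0.19 (SE). At 22 nt the called genes were RCA, PSAF, PSBO2, RBCS3B and RBCS2B. Of the nuclear genes for plastid sigma factors and organellar phage-type RNA polymerases, 4 of 8 tested were lower at 21 nt, close to the 45.9% of all genes, and 0 of 5 tested were called at 22 nt, where 1 of 5 had an unadjusted p under 0.05. Levels in that list were low, with 0 genes left in either class at a minimum mean of 5 TPM, so few reads decide its calls. The mitochondrion-encoded genes had 15 of 103 called higher and 1 lower at 21 nt (median 0.36), and 4 of 112 higher and 6 lower at 22 nt (median −0.15), where 4.33% and 15.1% of all genes were called. At 21 nt the shares over all genes were 7.72% and 45.9%. How these lists differ from the plastid genes was not tested.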

How the data were processed

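Small RNA libraries of 4 es3dd and 4 es3 samples were grouped by their titles. Per the submitters' processing notes, the tools were DESeq2 (no version), SAMtools 1.9 and Bowtie 1.2.2, with TAIR10 as build. How reads were counted, and what was done with multi-mapping ones, is not given in the sources used here. The deposited table gives the authors' mean TPM per genotype, and the authors' log2 fold changes with p-values and adjusted p-values. Per-sample columns not used numbered 0.

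Library values were recovered by matching each mean to whole reads of 4 libraries, a step chosen after the file had been seen. All 88 plastid rows were recovered in the 4 group means, 84 and 86 of them (es3dd and es3, 21 nt) and 82 and 84 (es3dd and es3, 22 nt) by a full search of up to 2500 reads. The rest came from a search within 35% of equal shares, where random control values matched in 3 of 27, 3 of 66, 1 of 20 and 0 of 40 cases in the same order. For rows recovered that way, the search bounds the spread between libraries. Among them were ATCG00840 in es3dd at 22 nt, and ATCG00490 and ATCG00870 in both groups at 22 nt. Where the group means are far apart, as for ATCG00490 and ATCG00870 at 22 nt, the search also excludes overlap. The counts of members without overlap include such rows. ATCG00020 in es3 at 22 nt had several matches and was settled by rounding. Libraries are numbered by their scale and carry no replicate number.

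Differences were fitted in R 4.3.3 by limma 3.58.1 with a mean-variance trend on log2(TPM + 1), over all genes with a mean of at least 1. The procedure was tested on simulated data. Intervals cover counting error only. Members and lists were chosen with earlier results of these data known. Members are named where they had the 5 largest or 5 smallest values of a comparison, or a reference name, except 1 member that is not reported by name here. ATCG00020 and ATCG00490, with the highest 21-nt means, and ATCG00550, ATCG00870 and ATCG01070 were added after their values were seen. A planned list of symbols and a planned ranking by gene length could not be applied except for clpP, because IDs were not paired with symbols or lengths here.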

Additional observations from a re-analysis of the deposited data

Results flagged for a closer look

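In 9 of 112 sets of 4 libraries, counted over the 28 named members, 1 library stood apart from the other libraries of its group by the gap to its nearest neighbour relative to the whole range. Chance alone flags about 1 in 20 such sets.

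In es3dd at 22 nt, ATCG00840 had 1439 TPM in its highest library, against 1007 to 1056 TPM in the others. ATCG00700 had 71.11 TPM in its highest es3dd library at 22 nt, against 40.67 to 44.25 TPM. ATCG00690 had 1.609 TPM in 1 es3dd library at 22 nt and 0 in the others.

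In es3 at 22 nt, ATCG00080 had 61.42 TPM in its highest library, against 46.34 to 48.31 TPM in the others. ATCG01080 had 20.34 TPM, against 8.341 to 9.457 TPM. ATCG01110 had 10.62 TPM, against 7.566 to 7.986 TPM, and ATCG00630 had 7.986 TPM, against 7.566 to 7.628 TPM. ATCG01120 had 2.543 TPM in its highest es3 library at 22 nt, against 0.7583 to 0.9457 TPM, and 0.6934 TPM in 1 es3 library at 21 nt, with 0 in the others.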

How the results depend on the processing

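Against the values given above, the direction over the plastid genes depended on the scaling of the libraries. Scaled to MIR loci, the count of members called higher in es3dd was 2 at 21 nt and 2 at 22 nt, beside 0.166% and 0.204% of all genes. The member medians turned to −0.22 and −0.20, beside −2.76 and −1.71 over all genes. Scaled to mitochondrion-encoded genes, the 21-nt count was 44, beside 2.88% of all genes, and the 21-nt median 1.103. Centred on the median gene, the medians were 2.55 at 21 nt and 1.65 at 22 nt. Scaled to the plastid-encoded genes, a setting chosen after seeing the data, the counts were 5 and 4 and the medians 0.034 and 0.051, as that scale sets the plastid level to near 0. Leaving out 1 library gave 66 to 70 called members at 21 nt and 47 to 54 at 22 nt, with medians of 1.47 to 1.58 and 1.14 to 1.27. Over all genes, 1225 to 1323 were called higher at 21 nt, with 16989 to 17774 tested. At 22 nt 553 to 618 were, with 14408 to 14968 tested. Pseudocounts of 0.5 and 2, a minimum mean of 5 or none, second copies left out (chosen after seeing the data) and voom weights gave 67 to 71 members at 21 nt and 50 to 54 at 22 nt. Under these settings 899 to 1458 of all genes were called higher at 21 nt and 470 to 631 at 22 nt. With a minimum mean of 5 the counts were 67 of 74 members tested at 21 nt and 50 of 72 at 22 nt. Beside them, 899 of 6475 and 470 of 5500 of all genes were called higher. In es3 against Col, a minimum mean of 10 left 74 of 75 members tested lower at 21 nt and 70 of 73 at 22 nt. Of all genes, 501 of 4860 and 441 of 4050 were lower there. Centring on the median left 78 of 81 lower at 21 nt and 75 of 81 at 22 nt, beside 881 of 18061 and 625 of 14640 of all genes. Without MIR loci in the denominator, the plastid share was 9.23%, 1.33% and 11.95% at 21 nt and 7.64%, 2.69% and 10.5% at 22 nt in es3dd, es3 and Col.

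Scaled to MIR loci, 26 of 81 members had a positive difference at 21 nt and 24 of 80 at 22 nt, against 79 and 77 under the authors' scaling, and scaled to plastid-encoded genes 41 and 44 did. Over all genes, 255 of 17438 at 21 nt and 343 of 14678 at 22 nt were positive under MIR scaling. Under the authors' scaling 4955 and 5364 of all genes were, and under plastid scaling 459 and 614. Single values are given here for 22 members, those named for es3dd over es3, with a reference name or with the highest 21-nt means. Their differences over both size classes number 43. Under MIR scaling 14 of these lost their call without changing sign, 5 gained a call and 4 kept their status. Under mitochondrial scaling 5 lost and 2 gained a call, and under plastid scaling 10 lost and 5 gained one. With a pseudocount of 2, 2 lost their call, and with voom weights 1 did. Among these 22, the log2 differences that turned negative under MIR scaling were, at 21 nt, ATCG00020 −0.99, ATCG00040 −0.35, ATCG00065 −1.06, ATCG00080 −0.66, ATCG00490 −0.31, ATCG00590 −1.48, ATCG00640 −0.76, ATCG00650 −1.12, ATCG00660 (rpl20) −0.43, ATCG00670 (clpP) −0.74 and ATCG00690 −1.33. At 22 nt they were ATCG00020 −1.03, ATCG00080 −1.15, ATCG00490 −0.27, ATCG00510 −0.61, ATCG00530 (cemA) −0.30, ATCG00590 −0.24, ATCG00640 −1.38, ATCG00660 −0.35 and ATCG00670 −0.16. Under plastid scaling they were, at 21 nt, ATCG00020 −0.73, ATCG00040 −0.092, ATCG00065 −0.81, ATCG00080 −0.40, ATCG00490 −0.059, ATCG00590 −1.22, ATCG00640 −0.50, ATCG00650 −0.87, ATCG00660 −0.18, ATCG00670 −0.49 and ATCG00690 −1.07, and at 22 nt ATCG00020 −0.78, ATCG00080 −0.90, ATCG00490 −0.025, ATCG00510 −0.36, ATCG00530 −0.052, ATCG00640 −1.13 and ATCG00660 −0.11. Under mitochondrial scaling ATCG00590 had −0.15 and ATCG00690 −0.0066 at 21 nt. Centring on the median gene turned ATCG00510 to 0.66 and ATCG00700 to 0.40 at 21 nt, and ATCG00065 to 0.21, ATCG00650 to 0.084 and ATCG00700 to 0.12 at 22 nt. Leaving out 1 library at a time, ATCG00510 ranged from −0.68 to 0.16 at 21 nt (positive without es3dd library 4) and ATCG00640 from −0.10 to 0.18 at 22 nt (negative without es3dd library 4, es3 library 1 or es3 library 4).

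No paired analysis was possible because replicate numbers are missing from libraries recovered out of means. TMM factors were planned and not run, and voom used the recovered library scale in their place. Members with few reads, such as ATCG00690 and ATCG01120, are limited by depth.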
